A study of Mus musculus with 2 samples.

Results

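The sites described here are stretches of open chromatin away from gene starts that were called in replicate 2 of the mouse cell line MN1 and not in replicate 1. They were found by DNase-seq, in which the nuclease DNase I cuts open chromatin and the cut ends are sequenced. Members were chosen by the peak calls of both libraries. A site is a 150 bp peak of replicate 2 on chromosomes 1 to 19 that shares no base with any peak or hotspot (a wider enriched region) of replicate 1. Its centre also lies more than 2.5 kb from every annotated transcription start site (TSS). The rule left 20828 sites, out of 101351 distal peaks and 167025 distinct peaks of replicate 2 on these chromosomes. That is 20.6% of the distal peaks of replicate 2. By the mirrored rule 38156 of 117351 distal peaks of replicate 1 were found in that library only, or 32.5%. The rule used this contrast, so neither share is a result.

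Both libraries came from MN1, an immortalized line of strain B6NCrl, treated with 10 nM methyltrienolone. This compound is a synthetic androgen that activates the androgen receptor. Both libraries belong to 1 group of 2 biological replicates with the same labelled treatment, and no untreated library was analysed here. The labels name no tissue, and they name sequencing instruments for replicate 1 only. With 1 library on each side, a difference between libraries has no replicate check, and no p-value is given. Shares carry 95% Wilson intervals, which cover counting error only, and neighbouring sites are not independent of each other. A site without a peak in replicate 1 is not shown to be closed there.

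The androgen receptor is a nuclear receptor that binds DNA as a dimer once it has bound its hormone. Its androgen response element (ARE) consists of a pair of inverted 6-base half-sites with 3 bases between them, and the receptors for glucocorticoids, mineralocorticoids and progesterone bind the same arrangement. The element was searched on both strands as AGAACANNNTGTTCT, where N is any base, with at most 2 of its 12 letters mismatched. CTCF, a zinc finger protein that helps to organise chromatin loops, was searched as CCANNAGNNGGC without mismatch. A match is a description of the sequence and not evidence that a protein was bound.

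The best matches show what such a site looks like. The following 6 sites combine a perfect ARE with the highest scores, on the chromosomes from which sequence is printed. Each is the whole peak, 5′ to 3′ on the plus strand of GRCm38 (mm10), read from the NCBI RefSeq genome, with the element in capitals and the nearest protein-coding gene as its name.
Smpd3, chr8:106313996-106314145: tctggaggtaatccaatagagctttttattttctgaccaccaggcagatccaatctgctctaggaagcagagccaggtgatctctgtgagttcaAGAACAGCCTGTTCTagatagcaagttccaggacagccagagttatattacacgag
Plcl2, chr17:50555876-50556025: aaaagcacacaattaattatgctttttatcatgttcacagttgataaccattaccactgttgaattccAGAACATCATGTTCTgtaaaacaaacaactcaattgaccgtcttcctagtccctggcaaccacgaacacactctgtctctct
Myc, chr15:62309796-62309945: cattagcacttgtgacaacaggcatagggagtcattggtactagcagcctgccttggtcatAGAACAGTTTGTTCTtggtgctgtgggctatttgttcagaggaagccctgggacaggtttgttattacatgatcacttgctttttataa
Ifng, chr10:118587076-118587225: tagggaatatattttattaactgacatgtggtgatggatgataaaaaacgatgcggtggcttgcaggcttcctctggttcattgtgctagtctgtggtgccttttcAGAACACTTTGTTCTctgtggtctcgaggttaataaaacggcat
Ctnnd1, chr2:84623756-84623905: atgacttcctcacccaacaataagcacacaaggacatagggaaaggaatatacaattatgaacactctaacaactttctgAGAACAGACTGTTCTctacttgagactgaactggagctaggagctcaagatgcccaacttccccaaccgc
Cited2, chr10:16806316-16806465: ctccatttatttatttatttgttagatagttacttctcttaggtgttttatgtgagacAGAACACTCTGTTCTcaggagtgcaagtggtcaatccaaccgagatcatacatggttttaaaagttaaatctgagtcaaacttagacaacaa
The Smpd3 site lay in an intron of Smpd3, which encodes a neutral sphingomyelinase, with a deposited score of 52. Of its bases 52.0% were soft-masked as repeats, against at most 25.3% in the other sites printed above. The Plcl2 site (score 48) and the Ctnnd1 site (score 41) lay in introns of Plcl2, a phospholipase C-like gene, and of Ctnnd1, which encodes p120 catenin of cell adhesions. The site named for Myc, a growth-promoting transcription factor, had a score of 43 and lay in an intron of the noncoding gene Pvt1, 322449 bp from the Myc TSS. The sites named for Ifng, the cytokine interferon gamma (score 41), and Cited2, a transcriptional coregulator (score 40), were intergenic. Their distances from those genes were 146104 bp and 916827 bp, so the nearest protein-coding gene can be remote. The nearest peak or hotspot of replicate 1 was 2996 bp away for the Smpd3 site, 5454 bp for the Ifng site and 4 bp for the Cited2 site.

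The 3 sites with the highest scores held neither an ARE nor a CTCF match. They are shown to set the strongest members beside the elements above.
Foxo3, chr10:42248376-42248525: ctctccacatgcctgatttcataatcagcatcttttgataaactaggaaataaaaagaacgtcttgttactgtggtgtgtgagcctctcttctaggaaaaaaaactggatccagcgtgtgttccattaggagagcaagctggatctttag
Trib1, chr15:59831176-59831325: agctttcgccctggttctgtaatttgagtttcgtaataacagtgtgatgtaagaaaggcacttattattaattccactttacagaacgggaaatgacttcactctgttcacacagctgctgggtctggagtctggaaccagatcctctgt
Slco3a1, chr7:74355876-74356025: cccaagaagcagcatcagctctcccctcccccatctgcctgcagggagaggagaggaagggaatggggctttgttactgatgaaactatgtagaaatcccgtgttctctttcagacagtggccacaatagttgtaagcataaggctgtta
The Foxo3 site lay in an intron of Foxo3, a forkhead transcription factor, with the highest score of the set, 81. The Trib1 site (score 78) was intergenic, 182598 bp from Trib1, which encodes a pseudokinase. The Slco3a1 site (score 78) lay in an intron of Slco3a1, an organic anion transporter. The next were nearest to Kif5c (77), a neuronal kinesin, Gpx4 (76), which reduces lipid peroxides, Ddc (76), the decarboxylase of dopamine and serotonin synthesis, Aldh8a1 (75), Srsf3 (75), Fbxo8 (75) and Slit3 (74), an axon guidance ligand. Of these 10, only the Aldh8a1 site held an ARE, with 2 mismatches.

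The sites had low scores, and their hotspots were narrow. The score is a whole number from 1 to 150 that the authors deposited with each peak without a stated meaning in the sources used here. The median was 28 (middle 50% of sites 21 to 35, highest 81) at the sites, against 54 (38 to 77, highest 149) at the distal peaks of replicate 2 that meet replicate 1. Of the distal peaks of replicate 2 with a score of 1 to 9, 91.7% were found in this library only. That share was 50.6% at scores of 20 to 29, 14.5% at 40 to 49 and 0.926% at 60 to 79, and 1 of 18554 peaks with a score of 80 or more was a member. The hotspots that hold the sites had a median width of 145 bp, against 325 bp for those of the distal peaks that meet replicate 1. At 7.15% of sites the hotspot had the highest deposited −log10 false discovery rate, against 57.4%. These values come from the contrast that chose the sites and are given as a description.

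**Figure D1:**
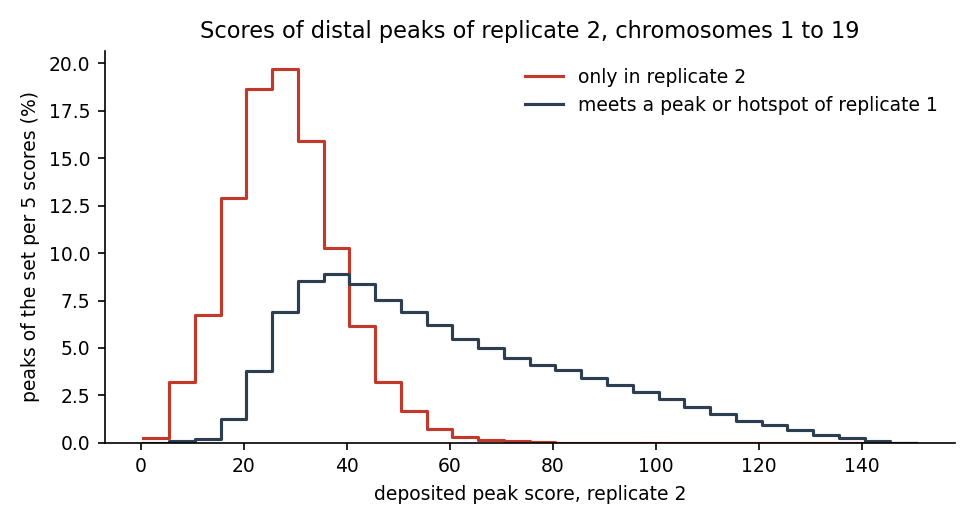
Deposited scores of distal peaks of replicate 2 on chromosomes 1 to 19, as the percent of each set per 5 scores. Sites only in replicate 2 (red) have a median of 28 and end at 81, and peaks that meet a peak or hotspot of replicate 1 (dark) have a median of 54 and reach 149.

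Sites on either side of the limits of the rule had like scores. The 200 sites centred at most 100 bp beyond the TSS limit had a median score of 29, and the 190 peaks only in replicate 2 centred at most 100 bp within it had 28.5. The 731 sites with a gap of 1 to 50 bp to replicate 1 had a median of 29, as had the 840 distal peaks that overlapped it by 1 to 50 bp. The median gap to the nearest peak or hotspot of replicate 1 was 2736 bp. It was at most 500 bp at 25% of sites and more than 10 kb at 25.2%. At 5.09% of sites the hotspot of the site itself touched a hotspot of replicate 1 beyond the peak.

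The ARE was more frequent at the sites than at their flanks, and the ratio was larger for better matches. A perfect ARE was found at 31 sites, and at none of their flanks, the 150 bp windows 1 kb downstream. A match with 1 mismatch was found at 196 sites, against 14 flanks, a ratio of 14, and one with 2 mismatches at 977 sites, against 263 flanks, a ratio of 3.71. Among the 80523 distal peaks of replicate 2 that meet replicate 1 the counts were 66, 532 and 2238, against 2, 73 and 1037 flanks. Among the 38156 distal peaks only in replicate 1 they were 2, 52 and 458, against 0, 24 and 468 flanks. All matches together were found at 1204 sites, or 5.78% (95% Wilson interval 5.47% to 6.11%), against 3.52% (3.40% to 3.65%) of the peaks that meet replicate 1 and 1.34% (1.23% to 1.46%) of those only in replicate 1. The flanks held it at 1.33% of the sites, 1.38% of the peaks that meet replicate 1 and 1.29% of those only in replicate 1.

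The element stood out from other spacings of the same half-sites. With inverted half-sites and the same mismatches allowed, a spacer of 3 bases was found at 5.78% of sites. Spacers of 0 to 10 bases other than 3 were found at 1.34% to 3.02% of sites, and the highest of these was a spacer of 5 bases (3.02%, 2.79% to 3.26%). The flanks of the sites held the spacer of 5 at 1.66%, and at 1.01% to 1.33% the spacers other than 5. The distal peaks of replicate 2 that meet replicate 1 held a spacer of 5 at 1.94%, against 1.91% of their flanks. At the peaks only in replicate 1, all spacers lay between 0.957% and 1.60%. Half-sites turned outward with 3 bases between them were found at 2.07% of sites, against 1.43% of flanks. Half-sites in the same direction were found at 4.90%, against 3.92%. A perfect single half-site AGAACA, which the element itself can supply, was found at 20.1% of sites, 16.2% of the peaks that meet replicate 1 and 13.3% of those only in replicate 1.

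**Figure D2:**
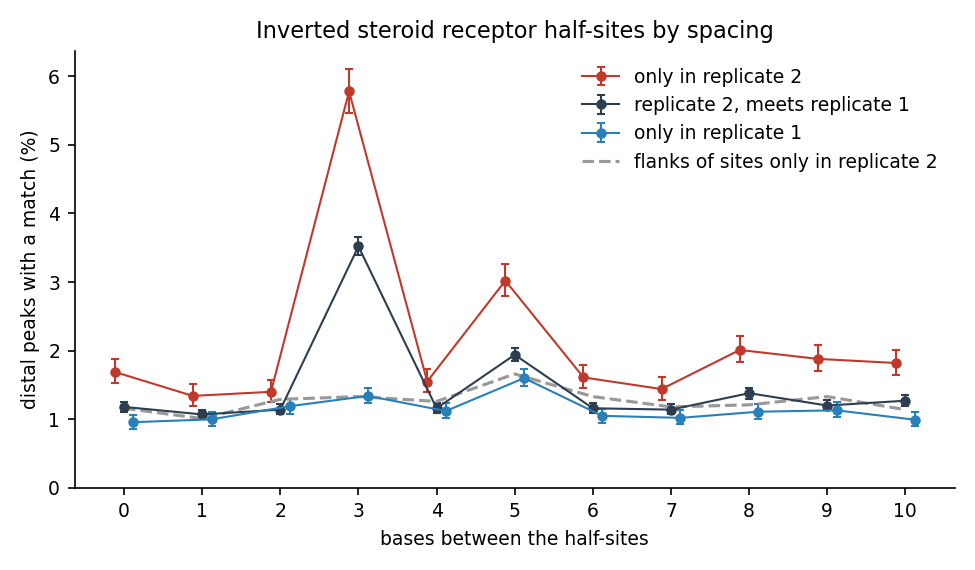
Percent of distal peaks with inverted half-sites (at most 2 of 12 letters mismatched) by the number of bases between them, with 95% Wilson intervals. Sites only in replicate 2 reach 5.78% at a spacer of 3 and 3.02% at 5, peaks of replicate 2 that meet replicate 1 reach 3.52% at 3, and peaks only in replicate 1 and the flanks stay below 2%.

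The elements of the 1204 sites were asymmetric when read with the better half-site first. Its letters matched in 87.2% to 96.7% of elements. In the other half-site the match ran from 56.1% at the third T of TGTTCT to 88.6% at the G. This order was set by the better half-site, so part of the asymmetry is by construction. A perfect half-site was present in 63.4% (60.6% to 66.0%) of the elements of the sites, against 45.1% (39.4% to 51.0%) of those in their flanks. The share was 61.9% in the peaks that meet replicate 1 and 60.4% (56.1% to 64.5%) in those only in replicate 1, so it did not set the sites apart.

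The elements lay near the peak centre. Of the AREs in sites, 49% (46.2% to 51.8%) were centred within 25 bp of the peak centre, against 36.8% (31.4% to 42.6%) in flanks. In the peaks that meet replicate 1 this share was 46.6%, and in those only in replicate 1 it was 35.7%. CTCF matches were more central, with 70.0% (67.6% to 72.3%) within 25 bp at the sites, 73.1% at the peaks that meet replicate 1 and 43.1% at those only in replicate 1.

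**Figure D3:**
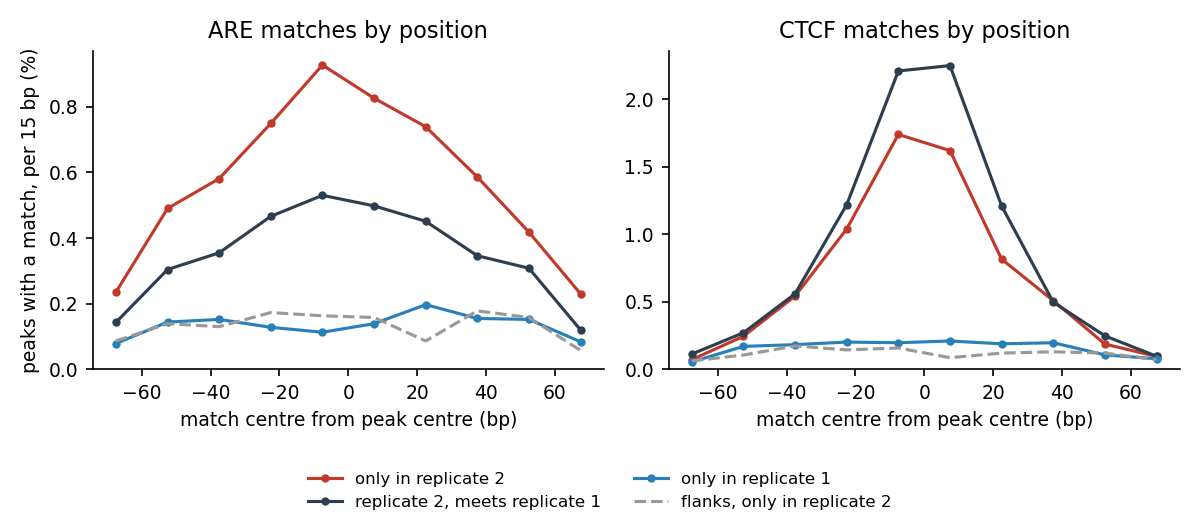
Percent of peaks with an ARE (left) or CTCF match (right) by distance of the match centre from the peak centre, in bins of 15 bp. The ARE of sites only in replicate 2 is highest in the 15 bp before the centre, at 0.927% of sites. In the flanks the bins range from 0.0576% to 0.178% for the ARE and from 0.0624% to 0.173% for CTCF. At peaks only in replicate 1 they range from 0.0786% to 0.197% and from 0.0550% to 0.210%. A match had to lie wholly inside the window, which lowers the outermost bins.

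Within the list of replicate 2 the ARE was more frequent at higher scores, and more so in the sites than in the peaks that meet replicate 1. From scores of 1 to 19 up to scores of 50 or more, the share with an ARE at the sites was 2.71%, 5.34%, 6.77%, 9.03% and 10.1% (8.13% to 12.5%). At the peaks that meet replicate 1 it was 2.09%, 2.34%, 3.05%, 3.6% and 3.88% (3.70% to 4.06%) in the same score classes. The intervals of both sets overlapped in the lowest class only. In the top class the sites reach 81 and the other peaks 149, so that class does not match them in score. For CTCF the sites were above the other peaks at scores of 20 to 49, with 10.4% against 6.57% at 40 to 49. At scores of 50 or more the order was turned, with 8.18% (6.40% to 10.4%) against 11.5% (11.2% to 11.8%).

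**Figure D4:**
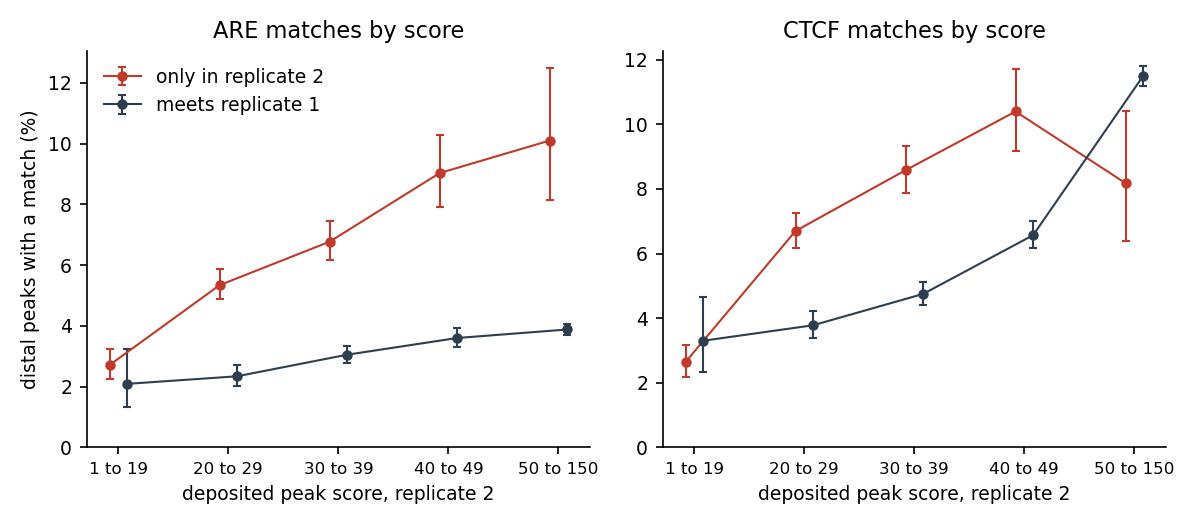
Percent of distal peaks of replicate 2 with an ARE (left) or CTCF match (right) by deposited score, with 95% Wilson intervals. The ARE share of sites only in replicate 2 is 2.71% in the lowest class and 10.1% in the highest, and that of peaks that meet replicate 1 is 2.09% and 3.88%.

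The ARE was unevenly spread over kinds of site. It was found at 6.6% (6.14% to 7.09%) of intronic and 4.92% (4.50% to 5.38%) of intergenic sites. It was found at 2.38% (1.71% to 3.30%) of the 1430 sites with a CTCF match and at 6.03% (5.71% to 6.38%) of those without. At sites of 40% to under 45% GC it was present in 7.18%, and at sites of 55% GC or more in 2.76%. The peaks that meet replicate 1 held it in 5.18% and 1.55% of the same classes, and were also lower from 45% to under 55% GC. Under 40% GC the sites were not higher, with 5.82% (5.14% to 6.57%) against 6.35% (5.70% to 7.06%). Where at least 50% of bases were soft-masked as repeats, the shares were 6.24% (5.26% to 7.39%) and 5.92% (5.19% to 6.74%). Elsewhere they were 5.73% and 3.41%. Sites within 500 bp of a peak or hotspot of replicate 1 held it in 3.88% (3.39% to 4.44%), sites more than 500 bp and up to 10 kb away in 7.29% (6.81% to 7.81%), and sites more than 10 kb away in 4.68% (4.14% to 5.29%). Of these last 5253 sites, 604 lay in the dense runs described further on, and without them the share was 5.18% (4.58% to 5.86%). By chromosome the share ran from 4.45% on chromosome 15 to 7.75% on chromosome 17.

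The other motifs differed between the sets in both directions. They were searched on both strands, without mismatch unless stated. A CTCF match was found at 6.87% (6.53% to 7.22%) of sites, against 8.68% of the peaks that meet replicate 1, 1.59% of those only in replicate 1 and 1.17% of the sites' flanks. Of the 2003 sites with at least 50% of their bases soft-masked as repeats, 22.3% (20.5% to 24.2%) had a CTCF match, against 5.22% of the others. The same held in the other sets, with 21.8% against 8.07% of the peaks that meet replicate 1. For those only in replicate 1 it was 6.69% against 1.24%. AP-1 is a dimer of Jun and Fos proteins, and its motif TGANTCA was found at 9.96% of sites, 16.7% of the peaks that meet replicate 1, 16.1% of those only in replicate 1 and 4.77% of the sites' flanks. The EBF motif TCCCNNGGGA, of the early B-cell factors, was found at 0.778% of sites, against 2.06% and 3.71%. The GATA factor motif AGATAA was found at 11.2%, against 9.64% and 8.15%, with 8.79% in flanks. The E-box CAGATGG was found at 4.78%, against 7.00% and 7.04%. The RUNX motif TGTGGTT and the TEAD motif CATTCC, at 3.72% and 8.50% of sites, were near their shares of 3.70% and 8.28% in flanks. The NFI motif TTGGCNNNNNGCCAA was found at 64 sites and 2 flanks. The FOX motif TGTTTAC was found at 2.64% of sites (flanks 2.20%), the homeodomain motif TAATTA at 5.20% (4.64%), the SP/KLF motif GGGGCGG at 0.927% (0.869%), the RFX motif GTTGCCNNGGCAAC, with at most 2 mismatches, at 0.787% (0.442%) and the CEBP motif TTGCGCAA at 0.0528% (0.0240%). The ARE and NFI motifs were not checked for overlap with each other or with the shorter motifs.

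Words of 6 bases were counted as a search without a given motif. Of the 1287 words found in at least 5% of sites, counted with their reverse complements, the highest ratio to the flanks was that of GACTCA, part of the AP-1 motif (12.4% of sites, 7.49% of flanks). The next was GAACAC (11.7% and 7.65%), which differs from the ARE half-site by a shift of 1 base, and AGAACA itself ranked 7 (20.1% and 13.3%). Against the peaks only in replicate 1 the ranks of these words parted. GACTCA was found there at 18.9% and ranked 1279 of 1287 by ratio, and AGAACA was found there at 13.3% and ranked 92.

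The sites were less often in introns and more often over 100 kb from a TSS than the other distal peaks. Introns held 50.3% (49.6% to 51.0%) of sites, against 52.3% of the peaks that meet replicate 1 and 54.5% of those only in replicate 1. Intergenic sequence held 45%, against 43.0% and 40.5%, and exons held 4.75%, against 4.78% and 5.03%. The median distance to a TSS was 13742 bp, against 12467 bp and 13908 bp, and 5.38% of sites lay more than 100 kb away, against 3.14% and 4.58%. Sites were poorer in G and C, with a median GC content of 46.0%, against 50% in both other sets and 44.7% in the sites' flanks. Sites without any CpG made up 26.6%, against 17.0% and 22.2%. Sites with at least 50% soft-masked bases made up 9.62%, against 4.43% and 6.34%.

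Across chromosomes, the share of distal peaks of replicate 2 without replicate 1 ran from 18.4% (17.5% to 19.4%) on chromosome 5 to 23.8% (22.8% to 24.9%) on chromosome 1, with a median of 20.3%. Without the dense runs described next, it ran from 17.6% on chromosome 11 to 22.0% on chromosome 10, with 21.9% on chromosome 1. The density ran from 6.46 sites per Mb on chromosome 3 to 11.9 on chromosome 11. Windows of 1 Mb varied more, but they hold far fewer peaks than chromosomes, so counting error alone widens their spread. In the 1455 windows with at least 20 distal peaks of replicate 2 the median was 19.2%, with 9.76% at the 5th and 39% at the 95th percentile and a lowest value of 0%. A window holding Sntg1, which encodes a syntrophin, had 50 distal peaks of replicate 2, and all 50 were only in that library, 47 of them in dense runs. A window holding Kcnv1, a potassium channel subunit, had 26 of 26, with 15 in a dense run.

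A small number of sites formed dense runs. Sites at most 10 kb from the next were chained, and 12260 of 20828 (58.9%) stood alone. At the other end, 42 chains held 10 or more sites. These chains were picked out after their values were seen. They held 980 sites (4.71%) in 756 kb on 13 chromosomes, with a median of 420 bp between neighbours. The largest was in and around Acyp2, which encodes an acylphosphatase, with 69 sites in 46830 bp (chr11:30617756-30664585). A chain of 56 sites lay in 34070 bp with no protein-coding gene (chr8:101221476-101255545). The nearest protein-coding gene was Cdh11, a cadherin, with its closest TSS 1381848 bp away, and no site of this chain had an ARE or CTCF match. A chain of 50 sites overlapped Fam129a (chr1:151529896-151574325), and one of 44 overlapped Abcd2, a peroxisomal fatty acid transporter. The next chains were in Wwox, which encodes a WW domain oxidoreductase (39), at the vomeronasal receptor genes Vmn2r49 and Vmn2r50 (39), and nearest to Kcna4, a potassium channel (38), Etaa1, which activates the ATR kinase (35), Sntg1 (35) and Pik3ca, a PI3-kinase catalytic subunit (32). The closest TSS was 474296 bp away for Kcna4, 213176 bp for Etaa1 and 328408 bp for Sntg1.

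**Figure D5:**
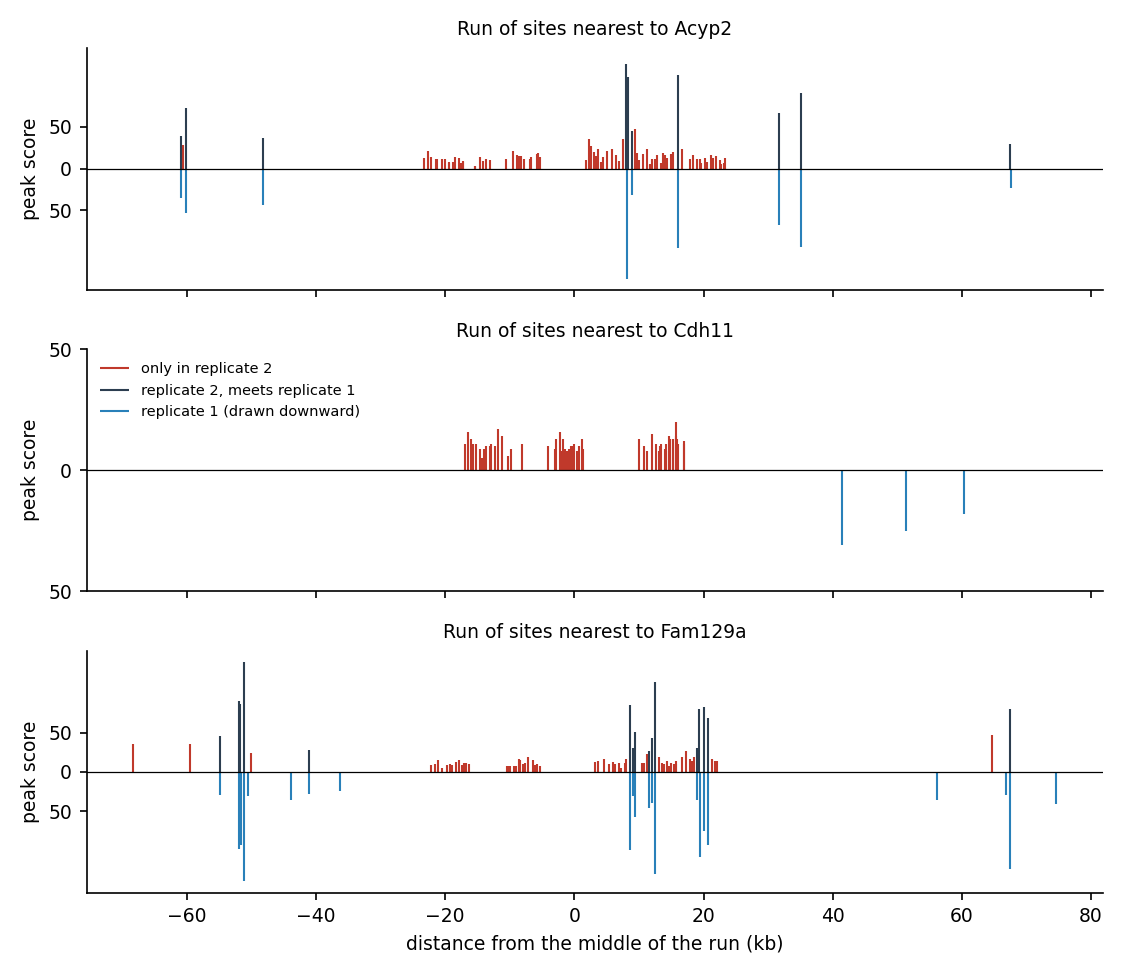
Peaks around the 3 largest chains by distance from the middle of the chain in kb, with the score as the height of each line. Peaks only in replicate 2 (red, those near a TSS included) and other peaks of replicate 2 (dark) point up and peaks of replicate 1 (blue) down, on a scale of its own in each panel. The chains of 69, 56 and 50 sites are rows of low red lines, and no peak of replicate 1 falls within the chain of 56.

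The chains differed from the other sites in score and sequence. Their median score was 11, against 28 at the other 19848 sites, and they held 745 of the 1764 sites scored under 15 (42.2%). An ARE was found at 1.02% (0.555% to 1.87%) of their sites, against 6.02% (5.69% to 6.36%) of the others. A CTCF match was found at 0.816% (0.414% to 1.60%), against 7.16% (6.81% to 7.53%). Their median GC content was 41.3%, against 46.0%, and 23.4% of their sites were at least 50% soft-masked, against 8.94%. Their spans held 1106 peaks of replicate 2 of any kind and 100 peaks of replicate 1, and 29 of the 42 held no peak of replicate 1. Of the 100 peaks of replicate 1, 36 lay in the chain at chr15:85663836-85693445. Flanks as wide as the chain were taken on each side, and they held 236 peaks of replicate 2 and 169 of replicate 1. Both flanks together are wider than the chains and some run into a neighbouring chain, so these counts are not comparable densities. The chains were built from peaks that replicate 1 does not overlap. The contrast between the libraries within the chains therefore follows in part from the rule and is a description. The peaks only in replicate 1 formed 48 chains of 10 or more by the same rule, with 619 sites, a median score of 40 and 32 sites in the largest. What sets these runs apart was not tested.

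The sites were clustered, and less so without the runs. Of the other distal peaks of replicate 2 within 50 kb of a site, 34.0% were sites too, against 15.6% around peaks that meet replicate 1 and 20.6% of all distal peaks. Without the chains of 10 or more these values were 20.8%, 15.2% and 19.8%. The chains were chosen for holding many sites, so leaving them out lowers the first value by construction. For peaks only in replicate 1 the values were 33.5% around them, 28.0% around peaks that meet replicate 2 and 32.5% overall. Without their own chains of 10 or more they were 32.3%, 27.3% and 32.2%. Sites with an ARE had other ARE sites near them more often than sites without. Of the sites within 50 kb of a site with an ARE, 7.36% had one too, against 3.28% around sites without, and without the chains 8.84% against 5.48%. For CTCF these values were 9.93% against 2.93%, and without the chains 11.1% against 5.38%. Pairs share sites, so these percentages carry no interval. Some sites overlap each other and were still counted as neighbours, so the same element can be counted in both. How far this raises the ARE and CTCF values was not tested.

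The genes nearest to the most sites were mostly those of the runs. Of 20807 protein-coding genes on these chromosomes, 7838 were the nearest to at least 1 site and 242 to 10 or more. The most were nearest to Acyp2 (70 sites), Cdh11 (69), Kcna4 (67), Wwox (65), Etaa1 (58), Sntg1 (55), Gm21863 (47), Abcd2 (43) and Fam129a (40), followed by Kcnj6, a potassium channel (35), Csmd3 (35), Zfhx3 (33), Zeb2 (30), A830018L16Rik (30) and Pde4d (28). Of the 15, Zfhx3, Zeb2 and Pde4d kept their counts without the chains, and their median scores were 28, 27 and 31.5. Zfhx3 and Zeb2 encode zinc finger transcription factors and Pde4d a cAMP phosphodiesterase. Near these 3 genes the sites were 24.8%, 35.3% and 22.0% of the distal peaks of replicate 2, against 20.6% over all distal peaks. An ARE was found at 4 of the 33 sites near Zfhx3, 1 of the 30 near Zeb2 and 0 of the 28 near Pde4d. Over all sites that share was 5.78%. Without the chains the next genes were Rbfox1, a neuronal splicing regulator (27), Trps1, a GATA-type repressor (27), Wwox (26), Dlg2, a synaptic scaffold (23), Grip1 (23) and Tenm3, a teneurin adhesion receptor (23).

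Near genes that respond to steroid receptors, the sites were no larger a share of the distal peaks than around all protein-coding genes. Of the 34 genes of a list of common androgen and glucocorticoid targets, 28 had a site within 50 kb of a TSS, against 12107 of all 20807 protein-coding genes. The median was 2 sites per gene, against 1 over all protein-coding genes. It was also 2 in the lists of pan-neuronal, neuronal ion channel, and neural crest and mesenchymal genes described below. The 62 sites stood beside 320 distal peaks that meet replicate 1 and were 16.2% of the distal peaks of replicate 2 there, against 19.2% around all protein-coding genes. The most were near Sgk1, a kinase of ion transport (6 sites), Zbtb16, a zinc finger repressor (4), and Camkk2, a calcium-dependent kinase (4), and none of these sites had an ARE. Fkbp5, an immunophilin that moderates receptor activity, had 1 site without an ARE beside 23 distal peaks that meet replicate 1. An ARE with 2 mismatches was found at 3 of the 62 sites (4.84%), against 6.17% of the sites near all protein-coding genes. The site at chr8:94162576-94162725 (score 51) was 16431 bp from Mt1 and 10013 bp from Mt2, both metallothioneins, and 9905 bp from the nearest gene, Mt3, and its element was ATCACAAAGTGTTCT. The site at chr12:55445756-55445905 (score 51) was 45979 bp from Nfkbia, the inhibitor of NF-kappaB, and 38448 bp from the nearest gene, Psma6, with the element AGAACAAAGAGTTTT. The site at chr17:26535256-26535405 (score 33) lay in an annotated intron of Dusp1, a MAP kinase phosphatase, with TGAACATTCTGTTCC. It was 26168 bp from the Dusp1 TSS and 26158 bp from that of Ergic1, the nearest gene. Of the 44 sites near 20 steroid receptor and cofactor genes, 3 had an ARE (6.82%). Hsp90ab1, a chaperone of the receptors, had 7 sites near it, and Ncoa3, a coactivator, had 6.

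Near the genes of the neuronal lists, the share of sites was between 17.4% and 25.3%, against 19.2% around all protein-coding genes. Of these lists, all but the ion channel and synaptic adhesion genes were below that level. Sites made up 17.7% of the distal peaks of replicate 2 near 24 pan-neuronal genes, with 11 near Rbfox3, the antigen NeuN, 7 near Syn2 and 7 near Snap25, both of the presynapse. They made up 18.3% near 22 motor neuron genes, with 9 near Foxp1, a forkhead factor of limb motor neurons, and 4 each near Pou3f1 and Lhx3. They made up 17.4% near 22 sympathetic and neuroblastoma genes, with 6 near Ngfr, the p75 neurotrophin receptor (highest score 74), and 5 near Cartpt. Axon guidance genes had 19.1% (Unc5a, Sema6d and Ephb2 with 5 sites each), synaptic adhesion genes 19.4% (Tenm3 with 6) and neural crest and mesenchymal genes 20.6% (Zeb2 with 7, Runx2 with 6 and Snai1 with 5). Neuronal ion channel genes had 25.3%, and 33 of their 99 sites were near Kcnj6, where a run of 31 sites lay (chr16:94882516-94900805). The share was 19.3% for glial, 17.6% for blood, 15.4% for endothelial and for skeletal muscle, 16.7% for epithelial and prostate, 14.9% for fibroblast, 14.6% for housekeeping and 13.0% for hepatocyte genes. These counts do not show which gene a site acts on.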

How the data were processed

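DNase-seq peak and hotspot lists of 2 libraries of 1 group were used. The assembly is mm10, per the labels. Aligner and caller were not given in the sources used here. The lists were deposited per library and not pooled. The score of a peak is the authors' own value, used only to describe, rank and filter peaks within a list. Hotspots carry a deposited −log10 false discovery rate (q-value), with 100 as the highest value. Read numbers are not in these lists, so the depth is unknown.

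Distinct peaks on chromosomes 1 to 19 were kept, 167025 of replicate 2 and 185756 of replicate 1. Overlap meant at least 1 shared base. Gene models were those of GENCODE M21 and sequences those of GRCm38, and coordinates are 1-based. Centres were placed in exons first, then introns, and otherwise called intergenic. Flanks were the 150 bp starting 1 kb downstream of each peak's start. Neighbourhoods spanned 50 kb, and sites at most 10 kb apart were chained. Calculations used Python 3.11.15, numpy 2.4.6, pandas 2.3.3 and, for figures, matplotlib 3.10.9, and were tested on simulated data.

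No test between libraries was made, since each side has 1 library, and sites are not replicates. The members, the 17 gene lists and the motifs were chosen with earlier results of these data known. Genes named were up to 3 per list with the most sites, the 15 nearest to the most sites, and those nearest to the 10 highest scores, best AREs and largest chains, of which some are printed and some are not reported here. Fkbp5, Mt1, Mt2, Mt3, Nfkbia, Psma6, Dusp1, Ergic1, Kcnv1 and the genes ranked without the chains were named after their values were seen. The alternatives concerned overlap, TSS distance, score, hotspot false discovery rate, repeats, GC, mismatches and neighbourhood size. The removal of dense chains was added after seeing the data.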

Additional observations from a re-analysis of the deposited data

Results flagged for a closer look

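Peaks of replicate 2 outside the rule were not used in the comparisons, and some of them held the ARE above its level in their flanks. On chromosome X, 618 distal peaks were found only in replicate 2, and 5.66% (95% Wilson interval 4.10% to 7.77%) had an ARE, against 1.78% of their flanks and 4.21% (3.31% to 5.33%) of the X-linked distal peaks that meet replicate 1. Within 2.5 kb of a TSS on chromosomes 1 to 19, 8336 peaks were found only in replicate 2, and 4.22% (3.81% to 4.68%) had an ARE, against 1.07% of their flanks. Of the 57338 peaks there that meet replicate 1, 1.65% (1.55% to 1.75%) had one.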

How the results depend on the processing

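Which peaks were called depends on sequencing depth and the caller's threshold, both unknown here, and the intervals cover counting error only. A share is said to move where it leaves the main 95% interval, which is narrow at this number of sites. The main values were 20828 sites, an ARE share of 5.78%, a CTCF share of 6.87%, an intron share of 50.3% and a neighbourhood share of 34.0%.

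With no peak or hotspot of replicate 1 within 500 bp the ARE share was 6.42%, the CTCF share 8.23% and the neighbourhood share 34.9%. With peaks of replicate 1 alone they were 5.26% for the ARE and 6.01% for CTCF. At scores at or above the median 10430 sites were left, with 7.32% for the ARE, 8.64% for CTCF, 54.0% for introns and 15.1% for the neighbourhood. In hotspots at the highest deposited −log10 false discovery rate, which is the lowest rate, 1490 sites were left. They gave 9.46% for CTCF, 46.2% for introns and 20.6% for the neighbourhood. In that hotspot class the 1490 sites stood beside 46186 distal peaks that meet replicate 1, so sites were a smaller part there than in the main set. Their part was also smaller at higher scores. The neighbourhood shares under the score and hotspot filters therefore cannot be set directly against the main value. Whether clustering was weaker or stronger under these filters was not tested. Sites over 5 kb from a TSS gave 48.8% for introns and 36.0% for the neighbourhood, and sites under 50% soft-masked 5.22% for CTCF and 29.1% for the neighbourhood. The ARE share was 6.64% at 40% to 50% GC and 1.09% with at most 1 mismatch. The neighbourhood share was 42.2% within 20 kb and 23.8% within 200 kb. Leaving out the dense chains, chosen after seeing the data, gave 51.4% for introns and 20.8% for the neighbourhood.

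Without replicate 1 the set is all 101351 distal peaks of replicate 2, with 3.99% for the ARE, 8.31% for CTCF and 51.9% for introns, and its neighbourhood share is complete by construction and not given. Without replicate 2 there are no sites. The cause of these shifts was not tested. No paired analysis was possible because both libraries belong to 1 group.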
